A study of Mus musculus with 8 samples.

Results

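The deposited transcript assembly of the mouse heart holds 330 spliced loci, of 35299 loci in all, that lie far from every annotated locus. A locus was taken when each of its assembled transcripts carried the class code u, the mark that the assembly software gives to a transcript between annotated genes. At least 1 transcript had to have 2 or more exons, and the span of the locus had to lie 50 kb or more from the span of any annotated locus on its chromosome. Annotated here means a locus with a transcript of class code =, j or o, which match or share part of a known transcript. No normalised value entered the choice. Transcripts of class code u come from assembled reads alone, so whether such a locus is listed at all depends on expression. Annotated loci can be listed without reads, as Lrfn5 is. The part of this in the comparisons with annotated loci was not tested. The libraries came from hearts of 12-week-old C57BL/6J mice, sampled 2 weeks after surgery from the border zone, the muscle next to the infarct or, after a sham operation, the zone labelled as its counterpart. In the 4 MI hearts the surgery was a myocardial infarction, and the 4 Sham hearts had a sham operation. No transgene, deletion or drug is given for either group, and the series names 4 biological replicates for each condition. Poly(A)-selected RNA was sequenced in paired reads of 100 bases.

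Groups followed the sample titles, which match the treatment field. Some labels say otherwise. All MI samples have a source name that reads Sham, MI replicates 1 to 3 are described with a sham infarct and Sham replicate 4 with an infarct. The word reanalysis stands in the Sham titles.

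Long intergenic RNAs are transcribed from stretches between protein-coding genes and are spliced and polyadenylated like messenger RNAs. Many are made in a single tissue or cell type and at low level, and a few turn out to code for short proteins when their open reading frames are examined. In the heart, such RNAs have been studied in cardiomyocytes, the contracting cells, and in the fibroblasts that build a scar after infarction.

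The loci were small and mostly simple. Of the 330 loci, 133 had no more than 2 exons in their longest chain and 135 had a single transcript. The median number of exons in the longest chain was 3 and the highest was 40. The median exonic length was 2530.5 bases (range 154 to 34254 bases), and the median span was 11477 bases. The median distance to the nearest annotated locus was 107 kb and the largest was 1479 kb. The plus strand held 159 loci and the minus strand 171, over 20 chromosomes, with 4 loci on the X chromosome and 0 on the Y chromosome.

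The name of the group holds only for the annotation the assembly was compared with. In 91 of the 330 loci, at least 1 intron equalled in length an intron of a gene in the later GENCODE M21 annotation, on the same chromosome and strand and at the start offset of the neighbouring loci. Of these 91 loci, 10 matched a protein-coding gene. When 1 base was added to every intron length, 0 of the 330 loci matched. Over all spliced loci of the assembly 1085 still matched, against 20480 without the added base, so such matches can occur by length alone. The other 239 loci had no such match and keep their assembly number alone. XLOC_012723, XLOC_014883 and XLOC_016279 had a match and are given by number too.

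Several of the leading loci matched known RNAs by intron length; no sequence of the assembly itself was compared, and the sequences shown are those of the matched GENCODE transcripts. Locus XLOC_020395 (mm9 chr3:63285053-63287888, minus strand) matched GENCODE gene Gm34302, which RefSeq lists as Strit1, at 2 of its 3 introns. Strit1 encodes DWORF, a micropeptide of the cardiac sarcoplasmic reticulum that raises the activity of the calcium pump SERCA. Its GENCODE M21 coding sequence has 105 bases, of which 13 lie in the first exon and 92 in the second, and codes for 34 amino acids before the stop codon. It is shown because the locus is outside the annotation used for the assembly although it is coding, with the start and stop codons in capitals.
Strit1 coding sequence: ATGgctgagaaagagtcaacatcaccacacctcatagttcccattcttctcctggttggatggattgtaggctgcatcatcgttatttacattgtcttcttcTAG

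Splice junctions of 12 further loci are shown because an intron of equal length is what gave each locus its name. A single intron gave the name of Gm43351 and Gm38403 (of 2 each), Gm31013 (of 3), Gm49212 (of 4) and Gm45805 (of 5). Gm10635 matched at 2 of 12 introns, Gm24474 at 2 of 9, Gm36827 at 3 of 7 and XLOC_012723 at 3 of 8. For Gm11732 it was 4 of 9, for Gm35330 7 of 16 and for 2600014E21Rik 2 of 2. Names matched at few introns are less certain. Each line joins the last 20 bases of an exon, in lower case, to the first 20 bases of the next exon, in capitals, 5′ to 3′ from the GENCODE M21 transcript. The first 5 belong to loci that were higher in MI and the other 7 to loci that were lower.
XLOC_012723: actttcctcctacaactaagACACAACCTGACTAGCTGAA
Gm43351 (XLOC_020157): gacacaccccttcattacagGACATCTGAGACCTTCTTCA
Gm49212 (XLOC_010855): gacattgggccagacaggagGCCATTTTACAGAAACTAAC
Gm38403 (XLOC_003223): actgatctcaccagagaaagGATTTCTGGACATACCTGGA
2600014E21Rik (XLOC_017016): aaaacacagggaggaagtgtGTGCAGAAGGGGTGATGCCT
Gm10635 (XLOC_033317): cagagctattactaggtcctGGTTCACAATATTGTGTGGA
Gm45805 (XLOC_031524): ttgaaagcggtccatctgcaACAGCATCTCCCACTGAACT
Gm36827 (XLOC_002849): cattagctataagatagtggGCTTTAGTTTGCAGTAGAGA
Gm31013 (XLOC_032788): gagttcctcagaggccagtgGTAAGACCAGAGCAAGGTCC
Gm24474 (XLOC_006232): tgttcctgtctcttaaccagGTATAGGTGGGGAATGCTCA
Gm11732 (XLOC_004626): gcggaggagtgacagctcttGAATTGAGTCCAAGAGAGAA
Gm35330 (XLOC_007917): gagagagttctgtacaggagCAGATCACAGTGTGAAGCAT

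Depth and the levels of several cell type markers differed between the groups. The Sham libraries held 108 to 161 M reads in loci and the MI libraries 165 to 190.2 M (means 138 ± 21.8 and 175 ± 11.3 M reads, SD over 4 libraries). The exact permutation test, 2-sided, gave p = 0.0286, which 4 against 4 samples cannot go below. Of the cardiomyocyte markers 4 of 5 with a locus of their own were lower in MI, with a summed level of 6.16 to 7.11 M normalised reads in Sham and 3.76 to 4.76 M in MI. All 7 fibroblast markers and all 5 macrophage markers with a locus were higher, and 0 of 4 endothelial markers were called. Of the lymphocyte markers, 3 of 4 for T cells and 4 of 4 for B cells were higher, as were 2 of 3 for smooth muscle. The 3 epithelial markers that could be tested (of 5) were higher too, with a median log2 difference of 2.65, and the erythroid marker Alas2 was lower (-0.80). That median is the value of Krt19, which held 331 normalised reads in MI replicate 3 and 23.1 to 67.6 in the others of MI. Krt8 and Krt18, at 2.35 and 3.34, did not stand apart in that library. Like Krt19, some markers of 3 other cell types stood apart in MI replicate 3, at more than 2 times every other library. These were 2 of 3 for skeletal muscle, 2 of 3 for adipocytes and 2 of 3 for mesothelium. The third of each list, Ckm, Fabp4 and Wt1, did not, and Ckm was lower in MI (-0.68). Myh4 held 2716 normalised reads there, and 0, 6.59 and 0 in the other MI libraries and 0 in each Sham library. Adipoq held 1661 normalised reads in MI replicate 3 and 28.8 to 183 in the others of MI, and Upk3b held 1846 against 83.5 to 125. In bulk tissue, fewer cells of a type and less RNA per cell cannot be told apart, and the part of cell content in the results below was not tested.

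After infarction, falls outnumbered rises among the far intergenic loci. Of 254 loci with a mean of at least 10 normalised reads over the 8 libraries, 117 (46.1%) were lower in MI and 27 (10.6%) were higher by limma with Benjamini-Hochberg adjustment at 0.05, and 110 were not called. Over all 19186 loci tested, 20.1% were lower and 20.8% higher, 40.9% in either direction. With scaling to total reads in loci, which moved the median of all tested loci from -0.02 to 0.29 on the log2 scale, 83 of the far loci were lower and 40 higher. The median log2 difference of the tested far loci, on the scale of log2(normalised reads + 1), was -0.62, against -0.02 over all loci tested. A difference of 2-fold or more was called lower for 78 of the 254 loci and higher for 18, where 3.77% and 9.04% of all tested loci were. All 4 MI libraries lay below all 4 Sham libraries in 108 loci and above them in 22 (20% and 19.7% of all loci tested).

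Summed over all 330 loci, the signal separated the groups. The sums in Sham replicates 1 to 4 were 62475, 82108, 71021 and 70728 normalised reads, and those in MI were 40224, 48492, 38813 and 35981. The lowest Sham library lay above the highest MI library, and the loci together made up 0.0372 to 0.0506% of all signal in Sham and 0.0249 to 0.0335% in MI. Without the most abundant locus the sums were 51606 to 69865 in Sham and 32267 to 42998 in MI.

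Nearer to annotated loci, falls made up a smaller share of the tested loci. Among spliced intergenic loci 10 to 50 kb away, 94 of 320 tested (29.4%) were lower and 43 higher, with a median log2 difference of -0.28. Under 10 kb, 87 of 396 (21.97%) were lower and 57 higher, with a median of -0.18. At the same distance as the far loci, 50 kb or more, intergenic loci of 1 exon also held more falls than rises. Of 346 tested, 90 were lower (26.0%) and 24 higher, with a median of -0.53. Annotated loci had 3203 of 15278 lower (21.0%), 3628 higher and a median of -0.003. These are counts side by side, and the difference between classes was not tested.

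**Figure D1:**
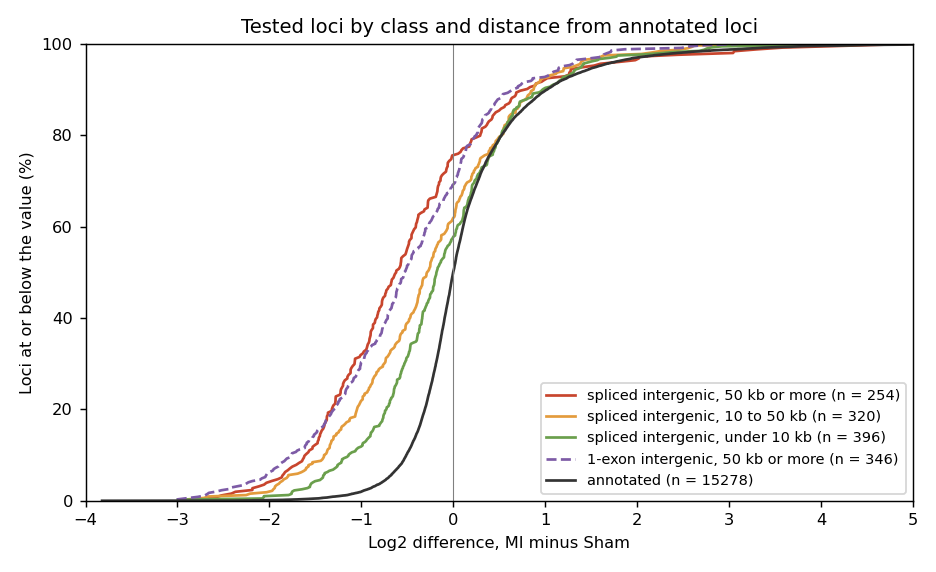
Cumulative share of tested loci (%, vertical) at or below each log2 difference, MI minus Sham (horizontal), for 5 classes of loci. The line of the spliced loci at 50 kb or more lies left of the annotated line over most of its length, with a median of -0.62 against -0.003.

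Strit1, the gene of the micropeptide DWORF, was among the falls. Its level per kb of exon was the highest of all 330 loci, at 1820.3 normalised reads per kb averaged over the 8 libraries, on 314 exonic bases in 3 exons. Sham replicates 1 to 4 held 738, 849.6, 1149 and 902 normalised reads, and MI replicates 1 to 4 held 184, 326, 194 and 229. Each MI library lay below each Sham library, and the difference was -1.98 ± 0.19 on the log2 scale (SE, n = 4 each, limma adjusted p = 3.94e-05). Both neighbours are far: Mme, which encodes the peptidase neprilysin, ended 95.2 kb away and was also lower, with a log2 difference of -1.38 (limma adjusted p = 1.04e-05), and Plch1 on the other side was not tested. Atp2a2, the gene of the SERCA pump itself, had a log2 difference of -0.97 (limma adjusted p = 8.38e-04).

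The steepest rise belonged to XLOC_000120 (mm9 chr1:45073359-45085687, plus strand, 2 exons), which has no match in GENCODE. It lies between Gulp1, an engulfment adaptor gene, and Col3a1, a fibrillar collagen gene of scars, 219 and 283 kb away. It held 4.77, 2.28, 0 and 0 normalised reads in Sham replicates 1 to 4 and 97.4, 101, 25.5 and 60.2 in MI. Behind these values stand 6 reads over the Sham group and 370 over the MI group, so the level in Sham is near that of no read at all. The groups did not overlap, and the log2 difference was 4.93 ± 0.65 (limma adjusted p = 2.22e-04). Col3a1 rose by 3.20 on the same scale and Gulp1 by 0.72.

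A second locus with a large rise had more reads behind it. XLOC_012723 (mm9 chr17:10057294-10089916, plus strand) matched a GENCODE lincRNA at 3 of its 8 introns and lies 303 kb from Qk, the gene of an RNA-binding protein. Its Sham libraries held 38.2, 28.5, 45.5 and 25.2 normalised reads and its MI libraries 839, 433, 726 and 688. The lowest MI library lay well above the highest Sham library, and the group means were 34.3 ± 9.24 and 672 ± 171 (SD, n = 4 each). The log2 difference was 4.25 ± 0.24 (limma adjusted p = 1.96e-06), while Qk itself was not called at -0.17, which became 0.14 with scaling to total reads. The locus 4930452A19Rik on the near side, 88.6 kb away, was not tested.

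Gm49212 (XLOC_010855, mm9 chr15:55864737-55881397, minus strand) lies between Sntb1, which encodes a syntrophin of the membrane skeleton, and Has2, a hyaluronan synthase gene. It rose from 43, 37.6, 26.1 and 23.7 normalised reads in Sham to 367, 209, 254 and 264 in MI. Every MI library lay above every Sham library, with a log2 difference of 3.04 ± 0.24 (limma adjusted p = 1.20e-05). Both neighbours were higher in MI, Sntb1 by 0.73 and Has2 by 1.61 on the log2 scale.

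Smaller loci rose on fewer reads. XLOC_012744 (mm9 chr17:14683511-14733565), 68.8 kb from the matricellular gene Thbs2, held 2.39, 1.14, 1.14 and 0 normalised reads in Sham and 18.6, 23.9, 23.1 and 26.2 in MI. That is 4 Sham reads against 115 MI reads, a log2 difference of 3.58 ± 0.42 (limma adjusted p = 1.18e-04), and Thbs2 rose by 0.82. XLOC_029785 (mm9 chr7:144748579-144756347), 84.6 kb from the glutaredoxin gene Glrx3, went from 2.39, 4.56, 9.09 and 1.58 to 44.4, 65.9, 35.4 and 40.1 normalised reads. Its log2 difference was 3.30 ± 0.43, whereas Glrx3 (XLOC_028608) was lower at -0.34, a call lost with scaling to total reads (-0.03, limma adjusted p = 0.617).

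Gm43351 (XLOC_020157, mm9 chr3:130576805-130582723) rose unevenly. Sham held 7.16, 1.14, 1.14 and 0 normalised reads and MI 38.4, 12.4, 16.5 and 18.3. MI replicate 1 was more than 2 times every other library, the only such case among the 254 tested loci and any MI library. The log2 difference was 3.05 ± 0.62 (limma adjusted p = 0.00285). The remaining rises among the leading 10 were XLOC_031059 (2.44), Gm38403 (2.02), 2600014E21Rik (2.02) and XLOC_026932 (1.98), each a log2 difference. No overlap between groups was a condition of this list. Of the leading 10, only XLOC_012723 and Gm49212 had a Sham mean of at least 10 normalised reads. All others reached the minimum mean through MI alone, so their rise and lack of overlap partly follow from that minimum. Gm38403 went from 8.83 ± 3.29 to 37.5 ± 5.57 normalised reads (SD, n = 4 each). Its neighbour Dyrk2, a kinase gene 51.1 kb away, was not called at 0.06.

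**Figure D2:**
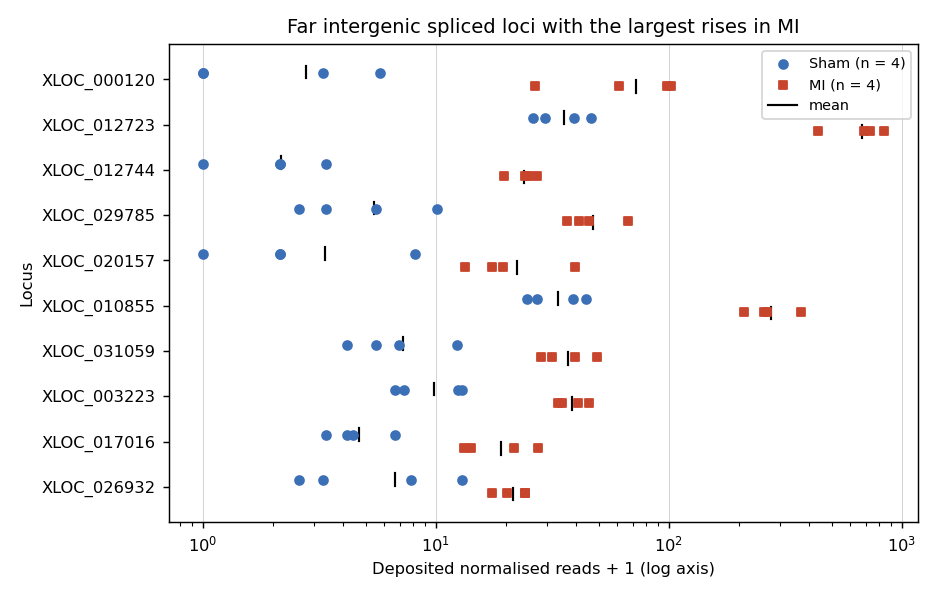
Normalised reads + 1 (horizontal, log axis) in each library for the 10 far intergenic loci with the largest rises, 4 Sham (circles) and 4 MI (squares), with group means as black ticks. Each row shows separated groups, a condition of the list, and XLOC_012723 stands highest in MI with 433 to 839 normalised reads before adding 1.

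The largest fall was that of XLOC_001225 (mm9 chr1:142969660-143000880, minus strand, 4 exons), which matched no GENCODE gene. It lies 459 kb from the potassium channel gene Kcnt2. Sham held 375, 454, 497 and 426 normalised reads and MI 46.4, 96.4, 67.5 and 52.4. The groups did not overlap, at a log2 difference of -2.77 ± 0.22 (limma adjusted p = 1.18e-05), that is 6.67-fold lower in the means. Kcnt2 was higher in MI, by 0.87 on the log2 scale.

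XLOC_007852 (mm9 chr13:103119612-103130951, plus strand, 4 exons) was the second most abundant of the far loci in Sham and fell 5.52-fold. Sham replicates held 4747, 6879.6, 6206 and 6304 normalised reads, and MI replicates 911, 1737, 821 and 902. The highest MI library, replicate 2, stood apart from the other 3 of its group and still lay below every Sham library. Means were 6034 ± 908 and 1093 ± 431 (SD, n = 4 each), with a log2 difference of -2.52 ± 0.22 (limma adjusted p = 1.83e-05). This RNA matched no GENCODE gene. Its nearest annotated locus, Cd180, an immune receptor gene 353 kb away, was higher by 1.30.

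Gm10635 (XLOC_033317, mm9 chr9:79291767-79367291, minus strand, 6 exons) lay beside a gene that moved the opposite way. Its Sham values were 475, 772, 629 and 752 and its MI values 121, 188, 97.2 and 107 normalised reads. It was lower by 2.37 ± 0.22 on the log2 scale (limma adjusted p = 3.13e-05). Col12a1, a collagen gene 79.5 kb away, rose: 246, 252, 234 and 211 normalised reads in Sham and 7801, 4974, 6215 and 8484 in MI, a log2 difference of 4.83. Cd109, on the other side, was higher by 1.99.

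Gm45805 (XLOC_031524, mm9 chr8:129278156-129282281, minus strand) fell from 148, 254, 202 and 238 normalised reads in Sham to 39.1, 85.6, 39.5 and 29.7 in MI. The groups did not overlap, and the log2 difference was -2.19 ± 0.31 (limma adjusted p = 3.53e-04). Gm31718, a non-coding neighbour 54.3 kb away, was higher by 0.78. The other 6 of the 10 largest falls were XLOC_007851, XLOC_019675, XLOC_024469, XLOC_014883, XLOC_001954 and XLOC_014882, at log2 differences of -2.58 to -2.03. XLOC_007851 and XLOC_001954 had MI means of 8.92 and 8.08 normalised reads and reached the minimum mean through Sham alone. XLOC_024469, 438 kb from the adhesion receptor gene Adgrl3, had an MI mean of 11.5 normalised reads. It held 53.7, 59.2, 55.7 and 45.7 normalised reads in Sham and 13.3, 16.5, 8.24 and 7.85 in MI. XLOC_014882 and XLOC_014883 both lie on chromosome 18 in the interval before Tshz1, and each was lower with no overlap.

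**Figure D3:**
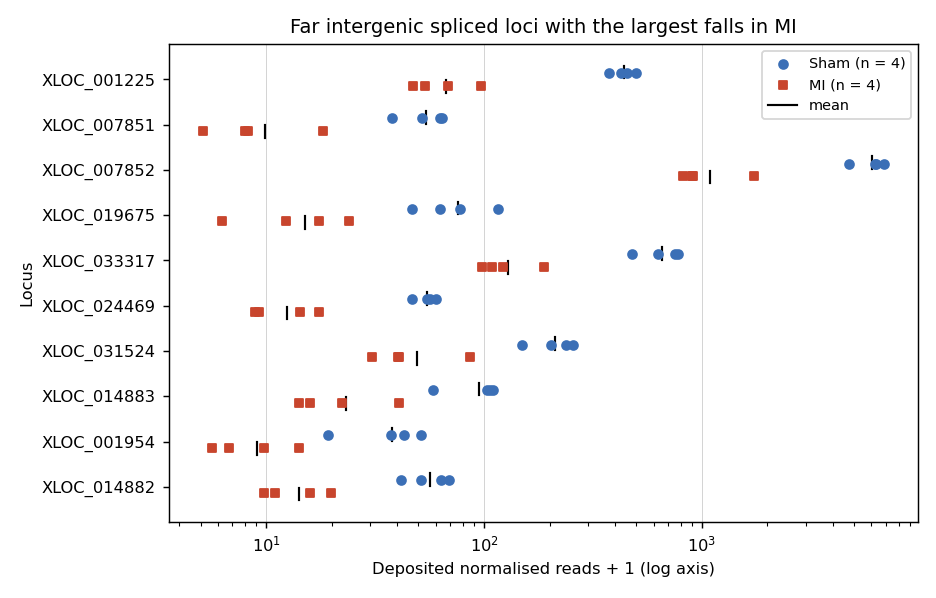
Normalised reads + 1 (horizontal, log axis) in each library for the 10 far intergenic loci with the largest falls, 4 Sham (circles) and 4 MI (squares), with group means as black ticks. All MI points lie left of all Sham points within each row, a condition of the list. XLOC_007852 is the most abundant, with 4747 to 6879.6 normalised reads in Sham.

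Most of the abundant far loci fell. Of 8 loci with a mean of at least 1000 normalised reads, 7 were lower in MI, against 28.3% of all 9265 loci tested at that level. Of the 7, Gm11734 (XLOC_004628) and Gm35330 (XLOC_007917) lost their call with scaling to total reads (limma adjusted p = 0.0860 and 0.0667). The remaining locus of the 8, XLOC_030410, was not called (log2 difference -0.57 ± 0.26, limma adjusted p = 0.101). Gm36827 (XLOC_002849, mm9 chr10:56687348-56702278, minus strand) was the most abundant. It held 10868, 12243, 10055 and 9146 normalised reads in Sham and 3951, 5494, 4287 and 3715 in MI, with no overlap. The log2 difference was -1.29 ± 0.13 (limma adjusted p = 4.16e-05), and its level per kb of exon, 1178 normalised reads per kb, was the second highest.

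Gm31013 (XLOC_032788, mm9 chr9:30528149-30589057), 118 kb from the matrix protease gene Adamts15, held 895, 992, 1077 and 944 normalised reads in Sham and 426, 586, 443 and 479.9 in MI. It was lower by 1.02 ± 0.12 on the log2 scale (limma adjusted p = 1.06e-04), and Adamts15 (XLOC_032789) was higher by 0.79, a call lost under DESeq2 (adjusted p = 0.0692), with no filter, upper-quartile scaling or a robust fit (limma adjusted p = 0.0535, 0.0530 and 0.0765) and without Sham replicate 1, 2 or 3 or MI replicate 1 or 4 (limma adjusted p = 0.0507 to 0.126). Of the 5 loci with the highest level per kb of exon, 4 were lower and XLOC_021441 was higher. XLOC_021441 (mm9 chr4:55220739-55251904, plus strand), 111 kb from the DNA repair gene Rad23b, went from 177, 173, 201 and 137 to 326, 259, 337 and 428 normalised reads. Its log2 difference was 0.96 ± 0.18 (limma adjusted p = 0.00166).

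Further matched RNAs of high level had lower means in MI. XLOC_016279 (mm9 chr19:36282475-36342156), 75.9 kb from Pcgf5, a Polycomb group gene, had means of 3157 ± 552 in Sham and 1661 ± 231 in MI (normalised reads, SD, n = 4 each), a log2 difference of -0.92. Pcgf5 was not called at 0.04. Ankrd1, 87.5 kb away on the other side, was higher by 1.90 (limma adjusted p = 3.44e-05). Gm24474 (XLOC_006232, mm9 chr12:71750640-71798347) ranged from 669.7 to 2176 normalised reads in Sham and from 228 to 566 in MI, a log2 difference of -1.83 ± 0.35. Its Sham libraries differed among themselves by more than 3 times, and the groups still did not overlap. Gm35330 (XLOC_007917, mm9 chr13:5538566-5723911) and Gm5860 (XLOC_021524, mm9 chr4:81711631-81748710), the latter 187 kb from the transcription factor gene Nfib, had log2 differences of -0.62 and -0.55. Both lost their call when scaled to total reads in loci, at -0.31 and -0.24. Gm20732 (XLOC_010967, mm9 chr15:68151109-68177163) was not called (-0.51 ± 0.24, limma adjusted p = 0.11), with 1024 ± 303 and 711 ± 190.3 normalised reads.

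Loci matched to GENCODE and unmatched loci both held more falls than rises. Of 74 matched loci tested, 31 were lower and 15 higher, a median log2 difference of -0.43. Of 180 unmatched loci, 86 were lower and 12 higher, a median of -0.71. The difference between the 2 sets was not tested.

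Among the 10 loci that matched protein-coding genes, 7 were tested: 2 were lower, 1 was higher and 4 were not called. Beside Strit1, the fall was that of Mettl11b (XLOC_001312, mm9 chr1:165620260-165655342), a methyltransferase gene, from 280.0 ± 73.5 to 111 ± 28.6 normalised reads (SD, n = 4 each), a log2 difference of -1.32 ± 0.22 (limma adjusted p = 9.73e-04). The rise was Dchs2, which encodes a large cadherin. Its 16-exon locus XLOC_019854 (mm9 chr3:83073118-83155748, plus strand) matched 15 of 15 introns and held 21.5, 19.4, 9.09 and 30 normalised reads in Sham and 57, 42, 44.5 and 59.3 in MI. The groups did not overlap, and the log2 difference was 1.39 ± 0.34 (limma adjusted p = 0.00736). A second locus of the same gene, XLOC_019853, was too low to test, with means of 0.963 and 3.9 normalised reads.

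The locus with the most exons, Fer1l6 (XLOC_010339, mm9 chr15:58362041-58496627, 40 exons), a ferlin gene, matched 38 of 51 introns. It held 171, 222, 181 and 233 normalised reads in Sham and 125, 161, 156 and 165 in MI. The groups did not overlap, yet the difference of -0.41 ± 0.16 missed the threshold (limma adjusted p = 0.0626). Rgs22 (XLOC_010802, mm9 chr15:35940306-36010724, 13 exons), named for regulation of G-protein signalling, lies 57.3 kb from an annotated locus of the same name. It was not called (-0.82 ± 0.42, limma adjusted p = 0.147), with 11.9, 26.2, 27.3 and 17.3 normalised reads in Sham and 14.6, 14.8, 13.2 and 4.36 in MI. Tmem196 and Tmem200c were not called either, and Otogl and Naaladl2 were too low to test.

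Some intervals held several far loci. The 330 loci occupied 237 intervals between consecutive annotated loci, of which 16 held 3 or more. In 9 of those 16, 2 or more loci were called, and within each of these 9 all calls had 1 direction; of all 144 called far loci, 117 were lower. On chromosome 10, 7 loci lie in the 1011 kb between Gm36595 and Hsf2, a heat shock factor gene, and 5 of them were lower in MI. Gm36827 is 1 of the 5. Its fellow Gm40652 (XLOC_002099, mm9 chr10:56836798-56884099) went from 978 ± 370.2 to 356 ± 50.2 normalised reads (SD, n = 4 each), a log2 difference of -1.39 ± 0.24. XLOC_002850, XLOC_002098 and XLOC_002100 were lower by 1.68, 1.62 and 1.44 on the log2 scale. Between Gm36595 and Gm36827, XLOC_002097 and XLOC_002848 had log2 differences of 0.31 ± 0.19 and 0.50 ± 0.25 and were not called. XLOC_002848 lies 32148 bases from Gm36827, on the same strand. Neither flanking gene was called, Gm36595 at 0.30 and Hsf2 at -0.10 (0.21 with scaling to total reads).

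On chromosome 13, 4 loci lie in the 857 kb between Gm47007 and Cd180, and 3 were lower. They are XLOC_007852, described above, XLOC_007851 and XLOC_007850. XLOC_007851 (mm9 chr13:102886935-102891033) held 37, 61.5, 51.2 and 63.1 normalised reads in Sham and 7.29, 17.3, 4.12 and 6.98 in MI, a log2 difference of -2.58 ± 0.39. XLOC_007850 had a log2 difference of -1.42 ± 0.34. XLOC_008434, on the opposite strand, was not called (-0.62 ± 0.26, limma adjusted p = 0.0773).

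**Figure D4:**
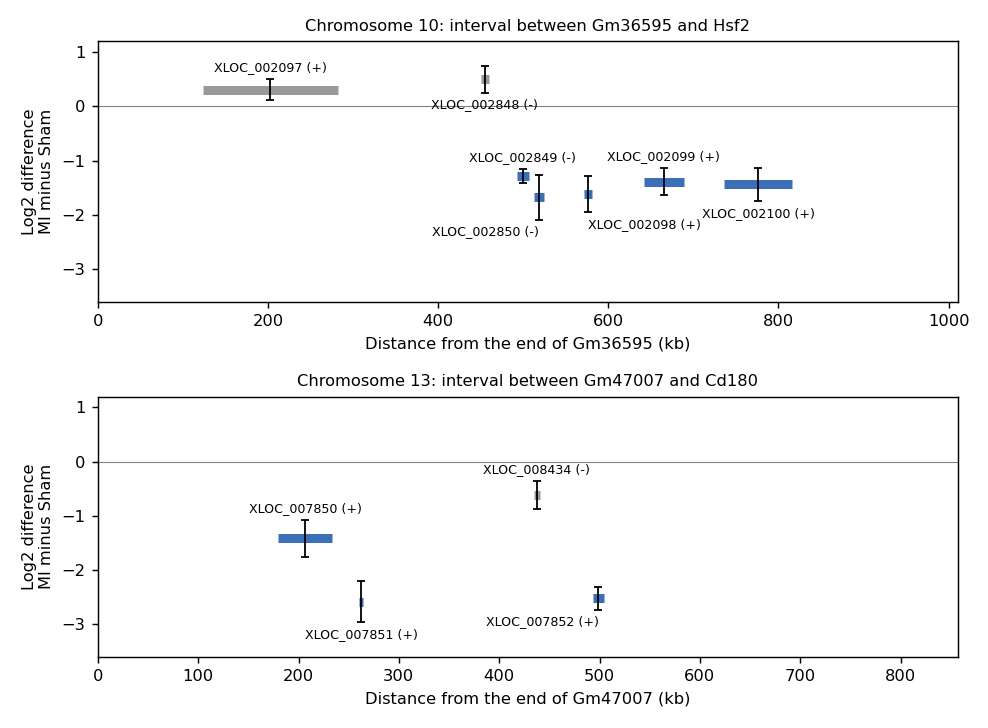
Log2 difference, MI minus Sham (vertical), of the tested far loci in intervals of chromosomes 10 and 13, placed by distance in kb from the end of the lower flanking locus. Bars show each locus's span, blue for a locus called lower and grey for one not called, vertical lines the SE (n = 4 against 4), and brackets the strand. On chromosome 10 the 5 loci from XLOC_002849 onward are lower, and the 2 before it are not called.

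On chromosome 12, 6 loci lie in the 646 kb between Gm5432 and Lpin1, the gene of a phosphatidate phosphatase. Gm36235, Gm36372, Gm48607 and XLOC_006111 were lower, with log2 differences of -1.12, -1.23, -1.19 and -0.91. The call of XLOC_006111 was lost with total scaling (-0.60, limma adjusted p = 0.0957), also outside the mitochondrial genome (-0.72, limma adjusted p = 0.0555), and without Sham replicate 2 or 4 or MI replicate 1 (limma adjusted p = 0.0502 to 0.0524). Gm48606 was not called (-0.85 ± 0.36), and Gm48605 was too low to test. Lpin1 was also lower, at -0.68. The spans of Gm36372 and Gm48607 overlap on opposite strands. Whether the libraries keep the strand is not given in the sources used here, so their reads may not be separate.

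On chromosome 11, 7 loci lie in the 249 kb between Sept9, a septin gene, and 2900041M22Rik. Gm11732 (XLOC_004626, mm9 chr11:117287298-117300065) had 1140.0, 1938, 1602 and 1819 normalised reads in Sham and 956, 1076, 544 and 581 in MI, a log2 difference of -1.08 ± 0.24. XLOC_005545 and Gm11734 were lower as well, at -1.21 and -0.74; for Gm11734 the call was lost with scaling to total reads, at -0.44. The flanking 2900041M22Rik was higher by 0.90, and Sept9 (XLOC_004624) by 0.24, though the latter lost its call with no filter (limma adjusted p = 0.0551) and without any single library but Sham replicate 1 (limma adjusted p = 0.0635 to 0.118). On chromosome 3, the interval with the Dchs2 loci rose: XLOC_019855, a 2-exon locus next to Dchs2 on the same strand, went from 66.6 ± 16.1 to 207 ± 58.1 normalised reads, a log2 difference of 1.60 ± 0.25.

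Pairs of neighbouring far loci were also counted. Of 84 neighbouring pairs less than 50 kb apart, both loci were tested in 44 and both called in 18, of which 17 pairs were lower in both, 1 higher in both and 0 opposite. Falls made up 81.3% of all called far loci, and whether pairs share a direction beyond that share was not tested. Pairs on the same strand made up 10 of the 18, and 4 of the 18 had overlapping spans. Pieces of 1 transcript can be assembled as separate loci, so such pairs may not be independent.

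Against the nearest annotated locus, directions were mixed. In 185 tested loci whose nearest annotated locus was also tested, Spearman's rho of the log2 differences was 0.18, given as a description across loci that share the same libraries. Both were called in 49 cases: 19 with both lower, 7 with both higher, 20 with the far locus lower and its neighbour higher, and 3 the reverse. Where the nearest annotated locus was lower, 19 of 32 far loci tested were lower. Where it was higher, 20 of 56 were lower and 7 higher.

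The share of tested loci that were lower differed between bins of distance and of level; the differences between bins were not tested. At 50 to 100 kb from the nearest annotated locus, 49 of 122 tested loci were lower (40.2%). At 100 to 200 kb it was 34 of 74 (45.9%), and at 200 kb or more 34 of 58 (58.6%), with median log2 differences of -0.49, -0.61 and -0.87. Across the 254 loci, distance and log2 difference had a Spearman rho of -0.19, and mean level and log2 difference one of -0.17. By level, 12 of 54 loci with a mean of 10 to 20 normalised reads were lower, 27 of 66 at 20 to 50, 41 of 76 at 50 to 200, and 37 of 58 at 200 or more (63.8%). Rises numbered 8, 10, 5 and 4 in the same order. Shares of all tested loci in these bins of level are not given, so the bins cannot be set against them.

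**Figure D5:**
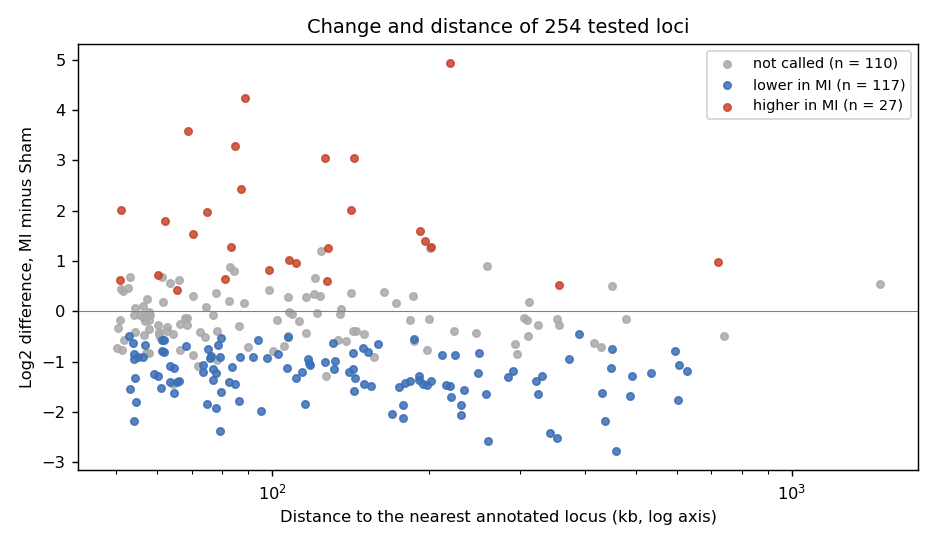
Log2 difference, MI minus Sham (vertical), against distance to the nearest annotated locus in kb (horizontal, log axis) for the 254 tested loci, coloured by call. Falls make up 40.2% of the tested loci at 50 to 100 kb and 58.6% at 200 kb or more, and 4 of the 27 rises lie at 200 kb or more.

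Loci at the 50 kb limit had these values. Just inside it, XLOC_006543 (50.2 kb) had 24.8 ± 7.62 normalised reads in Sham and 15 ± 6.83 in MI, XLOC_004629 (50.6 kb) had 461 ± 54.2 and 369 ± 43.3, and Otogl (XLOC_003186, 50.6 kb) had 3.54 ± 3.09 and 4.57 ± 5.38. Just outside it, XLOC_020447 had 2.81 ± 0.563 and 3.99 ± 2.83, XLOC_004625 had 45.9 ± 12 and 36 ± 8.38, and XLOC_020105 had 67.4 ± 9.26 and 64.2 ± 12.3. The 3 farthest loci were low: XLOC_006213, 1479 kb from Lrfn5, had 9.06 ± 4.76 and 12.2 ± 3.37 normalised reads, and XLOC_026015, 739 kb from Grm7, had 33.2 ± 24.8 and 19.1 ± 7.98. Neither was called. XLOC_006800, 1036 kb from Sel1l, held 13.1, 2.28, 1.14 and 3.15 normalised reads in Sham and 1.99, 2.47, 23.1 and 6.11 in MI and was too low to test.

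Single libraries stood out in these counts. Among the 117 loci that were lower, MI replicate 2 was the highest MI library in 84, and among the 27 that were higher it was the lowest in 15. Among the MI libraries, the same library was highest for 2 of 5 cardiomyocyte markers (MI replicate 4 for the other 3), and lowest for 5 of 7 fibroblast, 4 of 5 macrophage, 4 of 4 T cell and 4 of 4 B cell markers. The part of this in the results was not tested. Without MI replicate 2, 126 loci were lower and 25 higher. Without MI replicate 3, 103 were lower and 21 higher, and in 0 of the tested loci was that library more than 2 times every other.

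Of the 330 loci, 76 were not tested for their low level, 3 of them with 0 reads in all 8 libraries, and 292 had a read in every library. Among the 254 tested, 15 had a mean of at least 10 normalised reads in MI only and 21 in Sham only. A locus that reached the minimum through 1 group had a mean below 10 in the other. This favours a difference but forces no call: XLOC_006213 had 9.06 in Sham and 12.2 in MI and was not called. The counts above describe the tested loci and not all 330.

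Promoters could be read for a part of the matched loci. RefSeq gives a start for 49 of the 91 loci, with 47 distinct promoters since Dchs2 and 2810407A14Rik each hold 2 loci, and in 21 of these it lies within 100 bases of the assembled 5′ end. The 4 shown belong to 2 loci that limma called lower and 2 that it called higher. Both higher loci lost their call under some settings, given below, and A130077B15Rik reached the minimum mean through MI alone. Each has 250 bases before the RefSeq start in lower case and the 50 bases from the start on in capitals, read 5′ to 3′ on the gene's strand in GRCm38.p6.
Gm45805, lower, chr8:126758304-126758603, minus strand: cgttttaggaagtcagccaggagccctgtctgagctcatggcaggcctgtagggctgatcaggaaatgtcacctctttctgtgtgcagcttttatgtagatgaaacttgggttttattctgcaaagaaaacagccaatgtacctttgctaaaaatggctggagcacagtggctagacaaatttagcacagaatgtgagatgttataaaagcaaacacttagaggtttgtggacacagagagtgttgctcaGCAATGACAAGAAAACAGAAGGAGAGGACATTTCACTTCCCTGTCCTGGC
Gm24474, lower, chr12:70649499-70649798, plus strand: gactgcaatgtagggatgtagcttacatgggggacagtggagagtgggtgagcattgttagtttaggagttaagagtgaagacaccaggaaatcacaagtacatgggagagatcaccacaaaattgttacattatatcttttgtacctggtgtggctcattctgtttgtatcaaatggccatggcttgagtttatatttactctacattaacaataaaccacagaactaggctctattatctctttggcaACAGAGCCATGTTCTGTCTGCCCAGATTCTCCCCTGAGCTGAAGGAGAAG
Gm35154, higher, chr10:44598649-44598948, plus strand: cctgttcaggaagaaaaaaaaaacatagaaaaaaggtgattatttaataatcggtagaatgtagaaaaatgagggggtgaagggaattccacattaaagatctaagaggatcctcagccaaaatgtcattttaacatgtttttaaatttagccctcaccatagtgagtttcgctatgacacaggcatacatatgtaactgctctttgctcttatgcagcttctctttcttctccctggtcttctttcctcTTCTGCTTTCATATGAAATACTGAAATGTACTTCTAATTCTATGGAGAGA
A130077B15Rik, higher, chr10:122569842-122570141, minus strand: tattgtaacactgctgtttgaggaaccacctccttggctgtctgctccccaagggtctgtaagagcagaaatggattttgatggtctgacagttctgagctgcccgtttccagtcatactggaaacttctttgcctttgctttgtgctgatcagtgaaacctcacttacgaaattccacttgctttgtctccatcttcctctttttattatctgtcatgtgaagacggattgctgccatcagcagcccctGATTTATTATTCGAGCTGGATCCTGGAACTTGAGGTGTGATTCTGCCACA

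Gm35154 (XLOC_002075), 70.3 kb from the transcription factor gene Prdm1, went from 13.7 ± 10.1 to 35.6 ± 15.5 normalised reads, MI last (log2 difference 1.53 ± 0.55, limma adjusted p = 0.0446). The call of Gm35154 was lost with edgeR (adjusted p = 0.0580), with no filter or thinned reads (limma adjusted p = 0.0581 and 0.0717) and without Sham replicate 2 or 4 or MI replicate 1, 2 or 4 (limma adjusted p = 0.0504 to 0.117). A130077B15Rik (XLOC_003239), 108 kb from the phosphatase gene Ppm1h, had 8.92 ± 1.33 and 19.4 ± 4.64 (log2 difference 1.02 ± 0.29, limma adjusted p = 0.0175), a call lost with reads thinned to equal depth (0.58, limma adjusted p = 0.178) and without MI replicate 1 or 4 (limma adjusted p = 0.0526 and 0.0524). Letters of 5 motifs were searched on both strands of the 47 distinct promoters, 1 for each gene, the start nearest to an assembled 5′ end. AGATAA, the letters read by GATA factors, occurred in 8 (17.0%, against 11.2% of 32544 distinct RefSeq promoters of the same length, in which a gene with several starts counts more than once), among them those of Gm24474 and A130077B15Rik. CTANNNNTAG, read by MEF2 factors, occurred in 1 (2.13% against 3.70%), TGANTCA of AP-1 in 4 (8.51% against 7.79%) and GGAATG of TEAD factors in 7 (14.9% against 14.6%). TATAAA, the letters of the TATA box, occurred on either strand in 7 (14.9% against 13.6%). Gm45805 holds them on the gene's strand and Gm24474 on the opposite strand only. Such matches describe the letters and no binding.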

How the data were processed

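Per the submitters' processing notes, the authors worked on mm9 and used DESeq, HTSeq 0.5.4p2, Cufflinks 2.0.2 and TopHat2 2.0.5. Their settings are not given here. The table the authors deposited holds 1 normalised signal per locus and sample. All values were whole multiples of 1 step per sample (tolerance 1e-06), so reads were rebuilt; 1 read is worth 0.663 to 1.58 normalised reads. Up to 3 reads may stand behind a 0, for counting error only.

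Spans and class codes came from the deposited annotation. Names came from GENCODE M21 by intron length, with start offsets within 5000 bases of those of 10 neighbouring loci; 19964 of 20506 annotated spliced loci matched, and no coordinate was carried over.

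MI was compared with Sham on log2(signal + 1) with limma 3.58.1 (trend, R 4.3.3, 2-sided) over 19186 loci whose mean reached 10, adjusted over all of them at 0.05. The procedure was tested on simulated data. Alternatives used other pseudocounts, filters, scalings, edgeR 4.0.16, DESeq2 1.42.0, voom, a replicate block, thinned reads, each library left out, and other distances. Loci named were the 10 largest rises and falls without overlap, the 5 highest per kb, the 3 with most exons, the 8 highest matched, those nearest 50 kb, and the 3 farthest; loci of intervals with several members, Mettl11b, XLOC_030410 and the 4 promoters were chosen after their values were seen. Members, lists and tests were chosen with earlier results of these data known.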

Additional observations from a re-analysis of the deposited data

Results flagged for a closer look

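In 80 groups of 4 libraries, the highest or lowest library was checked against its group; a gap past Dixon's critical value at the 95% level occurred in 5, and chance gives about 1 in 20. Gm43351 (XLOC_020157) held 7.16 normalised reads in Sham replicate 1 (6 reads) and 0 to 1.14 in the other Sham libraries. XLOC_007852 held 1737 normalised reads in MI replicate 2 and 821 to 911 in the others of MI. XLOC_014883 held 57.3 in Sham replicate 1 and 102 to 109 in the other Sham libraries. Rgs22 (XLOC_010802) held 4.36 in MI replicate 4 (5 reads) and 13.2 to 14.8 in the others of MI. XLOC_006800 held 13.1 in Sham replicate 1 (11 reads) and 1.14 to 3.15 in the other Sham libraries.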

How the results depend on the processing

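The counts of 27 higher and 117 lower loci stayed within 1.5 times under the pseudocounts, TMM and upper-quartile scaling, both total scalings, edgeR (25 and 112), DESeq2 (28 and 120), voom, a robust fit, thinned reads (21 and 113) and no filter. Leaving out 1 library gave 19 to 26 higher and 100 to 126 lower. The count of higher loci was 9 with a minimum mean of 50 and 15 with a mean of at least 10 in the lower group, settings that test fewer loci. At 100 kb or more, 13 were higher and 68 lower of 132 tested. With the replicate block, 30 were higher and 124 lower; correlations between libraries of the same number were 0.15, 0.27, 0.16 and -0.0009, so not every pair passed 0.1 and the numbers were not taken as pairs; Sham replicate 1, for example, correlated more with MI replicate 4 (0.28). Of 61 called single loci, 9 lost their call under some setting: Gm35154, A130077B15Rik, XLOC_006111, Sept9 and Adamts15 as given above, and Gm11734, Gm35330, Gm5860 and Glrx3 (XLOC_028608, -0.03) with total scaling. The block ended the call of Sept9 (XLOC_004624, adjusted p = 0.0504) and no other of these calls, and brought Fer1l6, Gm20732, XLOC_004629 and XLOC_030410 past the threshold. Signs changed in 7 loci that were not called; the cause was not tested. With total scaling, and then outside the mitochondrial genome, log2 differences became 0.24 and 0.13 for Dusp26 (XLOC_030381), 0.25 and 0.13 for Utrn (XLOC_002706), 0.15 and 0.033 for Tmem196 (XLOC_006524), 0.21 and 0.092 for Hsf2 (XLOC_002101) and 0.14 and 0.019 for Qk (XLOC_013474), and 0.087 with total scaling for Tmem200c (XLOC_013360). With 1 library left out, the range was -0.31 to 0.15 for Dusp26, -0.17 to 0.024 for Utrn, -0.00688 to 0.12 for Dyrk2 (XLOC_003222) and -0.56 to 0.041 for Tmem200c. Loci of few reads, such as XLOC_000120 and XLOC_012744 in Sham, are limited by depth.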
